A study of Mus musculus with 17 samples.

Results

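The onset of the response to growth factor withdrawal was read by setting 3 arrays, taken 60, 90 and 120 min after withdrawal, against 4 arrays taken at 0, 15, 30 and 45 min. Membership followed the labelled times, which gave 7 of the 17 arrays in the series, with both time windows set when earlier results of these data were known. The cells were precursors isolated from adult mouse hippocampus, kept as an adherent culture on poly-D-lysine and laminin in Neurobasal medium with B27 supplement, GlutaMAX, basic fibroblast growth factor (bFGF) and epidermal growth factor (EGF), and both factors were then removed to start differentiation. Both groups thus came from the same kind of culture and differed in the time without bFGF and EGF, which was none at 0 min, 15 to 45 min in the other earlier arrays and 60 to 120 min in the later ones. The sources used here do not give the strain, sex or age of the mice or the number of cultures. Each time had 1 array, so neighbouring times stood in for replicates, and the p-values measure the spread between times of 1 series, not between independent cultures. There was no time-matched culture that stayed in the factors, so withdrawal, handling and time in culture cannot be told apart.

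EGF and bFGF bind receptor tyrosine kinases that activate the RAS, RAF, MEK and ERK kinase cascade and the PI3K and AKT pathway. ERK signalling keeps up the transcription of immediate early genes such as Egr1 and of its own inhibitors, the DUSP phosphatases and Sprouty proteins, many of which have short-lived mRNAs. When AKT activity drops, FOXO transcription factors can enter the nucleus, where they are known to raise genes such as Bcl2l11. The integrated stress response acts through the translation factor eIF2 and the transcription factor ATF4, whose targets include Chac1, Ddit3, Trib3 and Atf3. The series' title names Atf3 and Atf4.

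Values are log2 signals, and a difference of 1 is a doubling. A gene or unnamed probe (a feature) was tested if its mean over the 17 arrays reached 6.41, the median of all probes, which left 9940 of 19854 features. It was called if its adjusted p in the limma model fell under 0.05. Array medians lay between 6.40 and 6.42, and the correlation of the 7 arrays with each other over all probes lay between 0.991 and 0.996. Of the neural stem cell markers, Vim lay between 13.09 and 13.23 on the 7 arrays, Nes between 11.69 and 11.98 and Sox9 between 12.34 and 13.26, while Sox1, Pax6, Prom1, Msi1 and Emx2 lay below 6.41 in mean. Of 13 oligodendrocyte lineage genes on the array, 7 lay below the filter, Mbp was at 5.82 to 6.08, Pdgfra at 6.15 to 6.82 and Cspg4 at 6.58 to 6.98, while Olig1 was at 14.53 to 14.76. All 10 microglia and macrophage markers on the array lay below the filter, the highest of them P2ry12 with a mean of 6.31.

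Within the 7 arrays, 229 of 9940 features were called (2.3%), 126 higher (1.27%) and 103 lower (1.04%) at 60 to 120 min. The falls included the largest changes, led by the ERK phosphatase gene Dusp6 and the transcription factor gene Egr1, and 23 features fell and 13 rose at least 2-fold. The median log2 change over all tested features was -0.002 and the median size of a change was 0.109, beside a median SD of 0.136 among the earlier arrays and 0.116 among the later ones. The groups of arrays did not overlap for 1403 of the tested features (14.1%), 6.69% with the later arrays higher and 7.42% with them lower. Among called features they did not overlap for 120 of the 126 rises and 103 of the 103 falls. Calls and overlap rest on the same 7 arrays, so this is no separate support for the calls. Before adjustment, 1595 features had a p under 0.05. The count depended on single arrays: 51 features were called without the 90 min array, 53 without that of 120 min, 506 without that of 60 min, and 114, 149, 138 and 164 without those of 0, 15, 30 and 45 min.

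**Figure D1:**
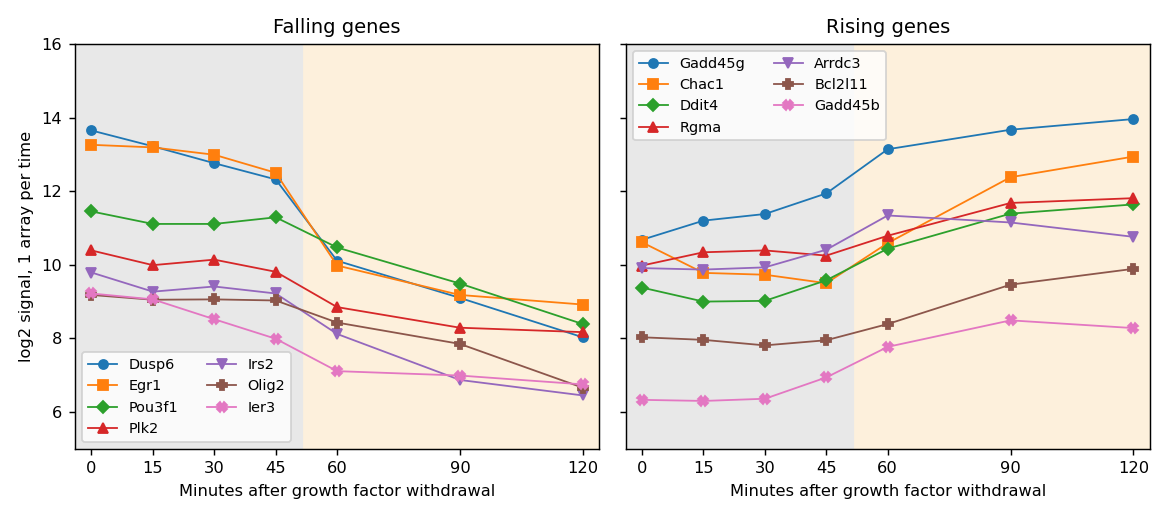
Log2 signal of 7 falling (left) and 7 rising (right) genes against minutes after withdrawal, 1 array per time and so no error bars, with the earlier group of arrays on grey and the later one on orange. Dusp6 fell from 13.65 to 8.03 between the first and the last of these arrays, and Gadd45g rose from 10.68 to 13.96.

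Genes of ERK negative feedback fell. Of 16 listed feedback and ETV genes, 13 were on the array and 10 were tested. Of these, 5 fell and 0 rose, beside 1.04% of all tested features lower and 1.27% higher. The median log2 change over the 10 was -0.46. The signal of Dusp6, which encodes the cytoplasmic phosphatase of ERK, was 13.65, 13.22, 12.76 and 12.32 at 0, 15, 30 and 45 min and 10.11, 9.10 and 8.03 at 60, 90 and 120 min. Every array was below the one before it, also within the earlier group, and the 2 groups were far apart. Its log2 change was -3.91 (SE 0.36, adjusted p = 5.9e-05), or 15.0-fold lower. Spry4, a Sprouty inhibitor of the pathway from receptor to ERK, read 8.09, 7.76, 7.09 and 7.24 and then 6.48, 6.07 and 6.28, a fall of all 3 later arrays to near or below the filter value and a log2 change of -1.27 (SE 0.19, adjusted p = 0.0022). Dusp4, a nuclear phosphatase of MAP kinases, stood between 8.75 and 9.23 and then at 8.52, 7.97 and 7.16 (log2 change -1.11, adjusted p = 0.014). Phlda1 stood between 8.81 and 8.92 and then at 8.49, 8.11 and 7.88 (-0.71, adjusted p = 0.0079). The member of the list that fell outside the naming rule, Dusp7, was chosen after its values were seen and changed by -0.55 (adjusted p = 0.023). The ETS factor genes Etv1, Etv4 and Etv5, known targets of the same receptors, did not pass at onset, with changes of 0.03, -0.13 and -0.32. Nor did the receptor feedback inhibitor Errfi1, at 0.12. Over the 10 tested genes the median change grew with time, from -0.24 at 60 min to -0.45 at 90 min and -0.785 at 120 min, each from 1 array. The list's count fell to 2 without the 90 min array and 3 without that of 120 min; Dusp4 then had an adjusted p of 0.067 without 90 min, and Phlda1 of 0.062 and 0.056 without 90 and without 120 min. With a variance trend and robust fitting Dusp4 had one of 0.083, and with all 17 arrays in the fit, where 3 members fell, Phlda1 had one of 0.07.

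Immediate early genes, which growth factors induce within minutes, fell along with them. Of 15 tested genes 8 fell and 1 rose, beside 1.04% of all tested features lower and 1.27% higher. Their median log2 change was -0.48. Egr1, a zinc finger transcription factor, read 13.26, 13.19, 12.99 and 12.50 at 0, 15, 30 and 45 min, each below the one before. It then stood at 9.98, 9.18 and 8.92 at 60, 90 and 120 min. Its change was -3.62 (SE 0.21, adjusted p = 1.9e-07), or 12.3-fold lower, and by time it was -3.00 at 60 min, -3.80 at 90 min and -4.06 at 120 min. Ier3, a stress and survival gene, dropped from 9.22 and 9.06 to 8.52 and 7.99 within the earlier group and then to 7.11, 6.99 and 6.75 (-1.75, SE 0.22, adjusted p = 0.00053). Egr4 stood at 8.72 to 9.15, was 8.27 at 60 min and reached 7.02 and 6.83 at 90 and 120 min (-1.57, SE 0.24, adjusted p = 0.0027). Jun, a subunit of AP-1, went from 8.41 to 8.63 down to 7.85, 7.21 and 6.92 (-1.17, SE 0.16, adjusted p = 0.0013). The 4 genes also differed in the shape of their course, since Egr1 and Ier3 had made most of their fall by 60 min while Egr4 fell mainly between 60 and 90 min and Jun fell by like steps up to 60 min and from 60 to 90 min and by a smaller one after that. The other 4 that fell, named after their values were seen, were Egr2 (-1.02), Ccn2 (-0.99), Dusp1 (-0.89) and Srf (-0.48), and the 1 that rose was Csrnp1 (0.68, adjusted p = 0.0079). Fos (-0.24), Egr3 (-0.08), Jund (-0.01) and Ccn1 (-0.09) did not pass, and 7 of the 22 genes on the array were too dim to be tested. The count of falls was 6 without the 90 min array, when the rise was lost too, and 5 without that of 120 min, and Egr1, Ier3, Egr4 and Jun kept an adjusted p under 0.05 whichever array was left out.

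RefSeq promoter windows of the 3 members of these lists with the largest called falls, passing over Egr1, are shown because their genes fell together. Egr1 was passed over by a rule on its chromosome, so the 3 windows say nothing of its promoter. Each window runs from 250 bases before to 50 after the start, on GRCm38.p6. Capitals would mark a match on either strand to TGATGNAA (a core of the ATF4 and C/EBP response element), the CArG box of SRF, CCGGAA (ETS), TGTTTAC (FOXO), GTGGGAA (RBPJ) or CACGTG (E-box), and none of these letters occurred in the 3 windows, which are in lower case throughout.
Dusp6, chr10:99262981-99263280, plus strand: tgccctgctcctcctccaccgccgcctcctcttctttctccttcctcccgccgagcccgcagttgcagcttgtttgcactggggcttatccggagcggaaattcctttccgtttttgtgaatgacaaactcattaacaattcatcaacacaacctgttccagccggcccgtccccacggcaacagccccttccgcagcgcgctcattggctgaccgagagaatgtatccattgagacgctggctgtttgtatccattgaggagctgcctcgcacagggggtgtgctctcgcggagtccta
Ier3, chr17:35821463-35821762, plus strand: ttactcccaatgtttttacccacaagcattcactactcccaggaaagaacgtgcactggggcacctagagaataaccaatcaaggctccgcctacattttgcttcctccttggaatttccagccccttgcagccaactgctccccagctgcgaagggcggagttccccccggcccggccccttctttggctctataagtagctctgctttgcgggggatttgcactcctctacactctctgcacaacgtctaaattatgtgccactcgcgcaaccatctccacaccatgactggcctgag
Egr4, chr6:85513540-85513839, minus strand: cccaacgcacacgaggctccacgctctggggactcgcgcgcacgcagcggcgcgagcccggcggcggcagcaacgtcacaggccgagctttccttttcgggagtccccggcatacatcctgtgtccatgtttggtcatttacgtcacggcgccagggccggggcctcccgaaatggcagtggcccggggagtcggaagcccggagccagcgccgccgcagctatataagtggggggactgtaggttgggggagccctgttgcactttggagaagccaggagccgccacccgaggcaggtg
Among the 77 called falls with a window in the table, the CArG box was in 2.6% and CCGGAA in 23.4%. In the windows of all 7326 tested genes that had one, the shares were 1.41% and 29.8%. These are descriptions of short letters in short windows and were not tested.

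Other falls came from genes for a kinase, a receptor, secreted factors and the growth regulator MYC. Plk2, a polo-like kinase and also a p53 target, read 10.39, 9.99, 10.14 and 9.81 and then 8.85, 8.29 and 8.17 (-1.65, SE 0.16, adjusted p = 7.5e-05). It was the only one of 12 tested p53 targets to pass at onset, beside 2.3% of all tested features. Cdkn1a, the best known p53 target, changed by 0.29 (adjusted p = 0.28). Hbegf, which encodes a ligand of the EGF receptor, stood between 8.92 and 9.56 and then at 8.87, 7.90 and 8.02 (-0.96, adjusted p = 0.018), the only call among 9 tested EGF and FGF receptors and ligands. Egfr (0.18), Fgfr1 (-0.22) and Fgfr2 (0.51, adjusted p = 0.098) did not pass. Hbegf lost its call without the array of 0, 30, 90 or 120 min (adjusted p = 0.055 to 0.13) and, at 0.06, with a variance trend and robust fitting. Lpar6, a receptor for lysophosphatidic acid, fell from 10.39 to 10.93 down to 9.73, 8.95 and 8.80 (-1.48, SE 0.19, adjusted p = 0.00076). Adm, which encodes the secreted peptide adrenomedullin, fell from 7.18 to 7.62 down to 6.62, 6.20 and 6.03 (-1.04, adjusted p = 0.001), while the other 7 tested genes of glycolysis and hypoxia did not pass. In the fit without the filter, which took in Myc (mean 6.97 in the earlier and 6.08 in the later arrays), Myc fell by 0.90 on the log2 scale (adjusted p = 0.0021). Of the 19 tested genes of MYC and ribosome biogenesis, 1 fell, Ppan, a ribosome assembly factor (-0.80, adjusted p = 0.023; 0.072 to 0.17 without the array of 0, 30, 90 or 120 min), and the list's median was -0.05. With the filter set on the mean over the 7 arrays, 20 genes of the list were tested and 2 fell.

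The insulin and FOXO list was split. The adaptor gene Irs2, which links the insulin and IGF receptors to PI3K, read 9.79, 9.27, 9.41 and 9.22 and then 8.12, 6.87 and 6.45. All 3 later arrays lay below the earlier ones, the last of them near the filter value, and the change of -2.27 (SE 0.27, adjusted p = 0.00043) was 4.83-fold. Its relative Irs1 changed by -0.07 (adjusted p = 0.79). In the other direction, Arrdc3, an arrestin-domain gene, read 9.91, 9.87, 9.93 and 10.41 and then 11.34, 11.15 and 10.76 (1.05, SE 0.15, adjusted p = 0.0015), highest at 60 min and lower on each array after it. Cited2, a transcriptional co-regulator, stood between 8.68 and 9.64 and then at 9.80, 10.31 and 10.02 (0.85, adjusted p = 0.02), and Fbxo32, a ubiquitin ligase known from muscle atrophy, rose from 5.98 to 6.36 up to 6.55, 7.00 and 7.32 (0.81, adjusted p = 0.01), so that its earlier values lay below the filter. In all, 3 of 14 tested genes of the list rose and 1 fell, beside 1.27% and 1.04% of all tested features. The list's median was 0.32. Ccng2 (0.67, adjusted p = 0.055), Txnip (0.67) and Foxo1 (-0.06) did not pass. Without the array of 90 or 120 min, 1 rise was left; Cited2 had an adjusted p of 0.055, 0.13 and 0.083 without 30, 90 and 120 min, and Fbxo32 of 0.074 and 0.075 without 90 and 120 min.

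In the BCL2 family, which governs mitochondrial cell death, 2 genes that promote death rose and 1 that protects fell. Bcl2l11, encoding BIM, read 8.03, 7.96, 7.81 and 7.95 and then 8.39, 9.46 and 9.89. The earlier arrays thus lay within a narrow band, and most of the rise came after 60 min (1.31, SE 0.23, adjusted p = 0.0079). Bbc3, encoding PUMA, stood between 8.42 and 8.76 and then at 9.16, 9.58 and 9.66 (0.88, SE 0.13, adjusted p = 0.0015). Mcl1, whose protein binds and restrains BIM, fell from 11.09 to 11.38 down to 10.84, 10.50 and 10.32 (-0.68, adjusted p = 0.0084). The other 9 of 12 tested members did not pass, among them Bcl2 (-0.03), Bcl2l1 (-0.25), Pmaip1 (0.22) and Bmf (0.43). The list's median was -0.03. Of all tested features, 2.3% were called at onset. Without the 90 min array, Bcl2l11 had an adjusted p of 0.067 and Mcl1 of 0.071, and without that of 120 min Mcl1 had one of 0.075. With a variance trend and robust fitting Bcl2l11 had one of 0.076, which left 1 rise in the list.

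Genes of the integrated stress response rose, with most of the calls at 90 and 120 min. At onset 4 of 15 tested members rose and 0 fell, beside 1.27% and 1.04% of all tested features. The list's median was 0.37, and 17 of 18 listed genes were on the array. The 4 that rose were Chac1, Ddit4, Ddit3 and Fgf21. At 60 min only Ddit4 passed, at 90 min 5 members and at 120 min 8, with list medians of 0.05, 0.60 and 0.77 at the 3 times. The promoter windows of the 3 that rose most are shown because ATF4 is known to bind such elements at Chac1 and Ddit3; capitals mark the matches to the motifs given above.
Chac1, chr2:119350992-119351291, plus strand: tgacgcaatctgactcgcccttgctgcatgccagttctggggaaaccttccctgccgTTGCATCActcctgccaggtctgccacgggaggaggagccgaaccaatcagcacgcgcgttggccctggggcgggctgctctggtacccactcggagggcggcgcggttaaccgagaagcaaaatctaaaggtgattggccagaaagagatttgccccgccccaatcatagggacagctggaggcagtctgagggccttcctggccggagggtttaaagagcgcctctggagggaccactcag
Ddit4, chr10:59951721-59952020, minus strand: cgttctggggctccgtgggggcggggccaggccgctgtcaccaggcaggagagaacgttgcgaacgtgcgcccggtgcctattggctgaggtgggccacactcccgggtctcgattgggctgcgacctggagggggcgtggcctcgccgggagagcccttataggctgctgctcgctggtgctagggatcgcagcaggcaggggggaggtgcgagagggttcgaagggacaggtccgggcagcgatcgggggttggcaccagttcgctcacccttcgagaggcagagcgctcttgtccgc
Ddit3, chr10:127290543-127290842, plus strand: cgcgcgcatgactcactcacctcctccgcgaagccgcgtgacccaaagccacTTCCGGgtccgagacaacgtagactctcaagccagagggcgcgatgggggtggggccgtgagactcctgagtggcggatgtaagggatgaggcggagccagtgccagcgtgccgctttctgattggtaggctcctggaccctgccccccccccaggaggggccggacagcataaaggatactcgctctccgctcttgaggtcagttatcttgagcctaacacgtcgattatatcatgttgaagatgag
The match in Chac1 is to TGATGNAA on the minus strand, from -193 to -186 counted from the start. That in Ddit3 is to CCGGAA on the minus strand, from -198 to -193. The windows of Ddit3 and Ddit4 held no TGATGNAA. TGATGNAA occurred in 3 of the windows of 88 called rises (3.41%), in 2.6% of those of called falls, in 2.09% of those of the 7326 tested genes and in 4.06% of all 27025 windows, with no test made.

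Chac1, which encodes an enzyme that degrades glutathione, read 10.61, 9.78, 9.73 and 9.50 and then 10.59, 12.38 and 12.94. Its 60 min value was still within the range of the earlier arrays, whose 0 min value was the highest, so the groups overlapped; the change was 2.07 (SE 0.39, adjusted p = 0.01), and between 60 and 120 min it was 2.35 (adjusted p = 0.0073). Ddit4, an inhibitor of mTORC1 also known as REDD1, read 9.38, 9.00, 9.02 and 9.58 and then 10.44, 11.39 and 11.64, with no overlap (1.91, SE 0.22, adjusted p = 0.00032). Ddit3, which encodes the transcription factor CHOP, stood between 6.92 and 7.55 and then at 7.54, 8.30 and 8.63, so that it too was within the earlier range at 60 min (0.89, SE 0.20, adjusted p = 0.029). Fgf21, a secreted stress hormone, stood between 6.00 and 6.24, was 6.27 at 60 min and 7.25 and 7.40 after that (0.82, SE 0.20, adjusted p = 0.039). The first 5 of these values lie below the filter, which Fgf21 passed only through its later arrays, and without the filter its adjusted p was 0.052. Atf4 itself read 13.13, 12.63, 13.00 and 12.99 and then 12.98, 13.56 and 13.56, a change of 0.43 that did not pass (SE 0.15, adjusted p = 0.15). Its adjusted p lay between 0.0099, without the 60 min array, and 0.51 over the alternatives tried. Atf3 lay near the lower end of the scale, at 5.83, 5.95, 6.17 and 6.13 and then 6.30, 6.47 and 6.87; in the fit without the filter its change was 0.53 (adjusted p = 0.056), and at 120 min alone 0.85 (adjusted p = 0.0088).

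The stress response count moved with single arrays and with the model. It was 3 without the filter, 2 with all 17 arrays in the fit and 1 with a variance trend and robust fitting, where Chac1, Ddit3 and Fgf21 had adjusted p values of 0.20, 0.098 and 0.14. With all 17 arrays those of Ddit3 and Fgf21 were 0.058 and 0.12. Among arrays left out, it was 11 without the 60 min array, 1 without that of 90 or that of 120 min, and 2, 2, 2 and 4 without those of 0, 15, 30 and 45 min. Chac1 had an adjusted p of 0.082 without 90 min and of 0.064 without 120 min. Ddit3 lost its call without the array of 0, 15, 30, 90 or 120 min (adjusted p = 0.061 to 0.20), and Fgf21 without any array but that of 60 min (0.082 to 0.24). Ddit4 kept its call under each of these settings. Trib3 and Nupr1, 2 further ATF4 targets chosen after their values were seen, missed the threshold at onset (1.18 and 0.83, adjusted p = 0.08 and 0.075) and passed it at 120 min (2.00 and 1.34, adjusted p = 0.0021 and 0.0013). Genes of amino acid supply, many of them known ATF4 targets, held few calls: 0 of 10 tested genes of serine, one-carbon and amino acid synthesis passed at onset or at 60, 90 or 120 min, with a median of 0.01 at onset and Asns at 0.06, and 0 of 14 tRNA synthetases passed, with a median of -0.07. Of 6 amino acid transporters 1 passed, Slc38a2 (0.46, adjusted p = 0.026), whose 4 earlier arrays lay between 10.80 and 10.88; it lost its call without any array but that of 60 min (adjusted p = 0.053 to 0.17) and, at 0.069, with all 17 arrays in the fit. Of 17 tested genes of endoplasmic reticulum folding 0 passed at onset, with changes from -0.56 to 0.82 and Hspa5 at -0.04. The largest rise was that of Herpud1 (0.82, adjusted p = 0.073). Herpud1 was at 10.11 to 10.68 in the earlier arrays, at 10.49 at 60 min and 11.63 and 11.70 later. Its change was 0.04 at 60 min, 1.18 at 90 min and 1.25 at 120 min, each from 1 array. Heat shock genes gave 1 fall, Dnajb1, in 8 tested (-0.64, adjusted p = 0.0064; 0.052 without 90 or without 120 min), and NRF2 targets gave 0 in 8. With 2.3% of all tested features called at onset, lists this short would hold few calls or none in any case.

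**Figure D2:**
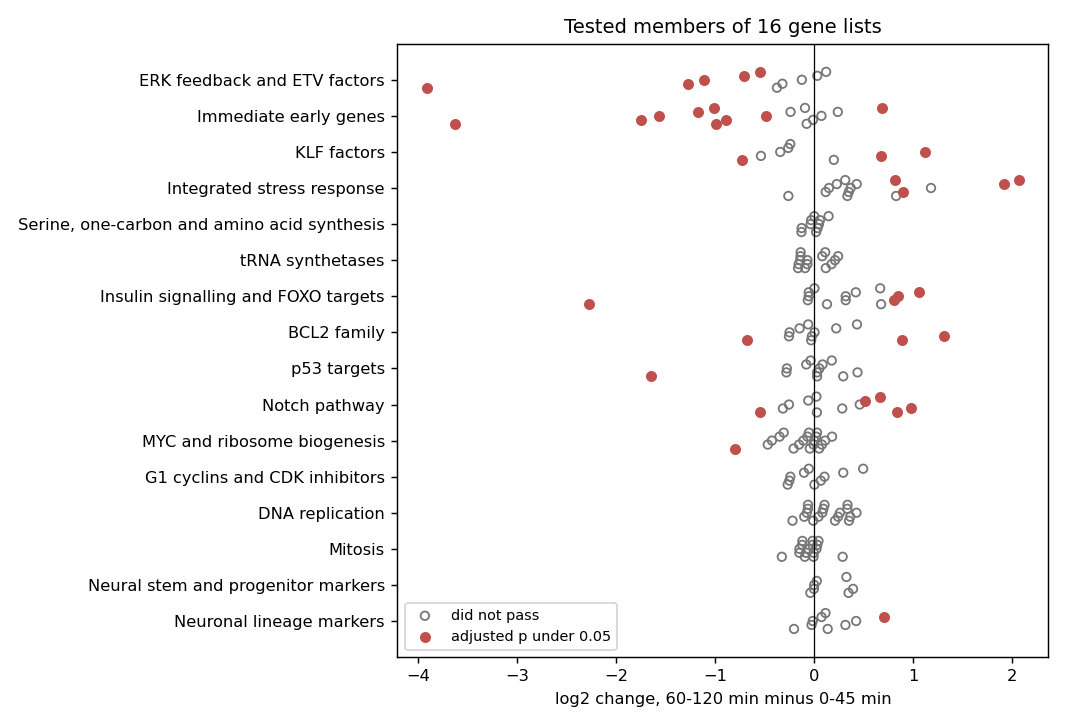
Log2 change, 60 to 120 min minus 0 to 45 min, of each tested member of 16 gene lists (1 point per gene, red where the adjusted p was under 0.05). The 4 called stress response genes lie to the right at 0.82 to 2.07, while the points of tRNA synthetases and of serine and one-carbon genes lie near 0.

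2 of the GADD45 genes and several regulators of growth also rose. Gadd45g, which encodes a stress sensor that binds cell cycle and MAP kinase kinase kinase proteins, read 10.68, 11.20, 11.38 and 11.94 and then 13.14, 13.67 and 13.96. It rose from each array to the next, also before 60 min, and its change of 2.29 (SE 0.23, adjusted p = 9e-05), or 4.90-fold, was the largest rise among named genes whose groups did not overlap. Gadd45b stood at 6.30 to 6.36 through 30 min, below the filter value, and then at 6.94, 7.77, 8.49 and 8.28 from 45 to 120 min (1.70, SE 0.17, adjusted p = 9e-05). Gadd45a, the member listed as a p53 target, changed by -0.28 (adjusted p = 0.38). Klf4, a Krüppel-like factor known to restrain proliferation, rose from 7.39 to 7.78 up to 8.01, 8.82 and 9.17 (1.11, SE 0.20, adjusted p = 0.0075), and Klf13 rose by 0.67 (adjusted p = 0.029), while Klf6 fell by 0.73 (adjusted p = 0.04). Of 8 tested KLF genes the other 5 did not pass, while 2.3% of all tested features were called. Without the 90 min array no KLF gene passed: Klf4 then had an adjusted p of 0.062. Klf13 lost its call without the array of 0, 15, 45, 90 or 120 min (adjusted p = 0.053 to 0.19), and Klf6 without that of 0, 15, 45, 90 or 120 min (0.082 to 0.25) and, at 0.052 and 0.064, without the filter and with a variance trend and robust fitting. Tob1, an antiproliferative gene that acts in mRNA deadenylation, rose from 8.63 to 8.98 up to 9.47, 9.70 and 9.76 (0.83, SE 0.12, adjusted p = 0.0015), the only call among 5 tested BTG, TOB and ZFP36 genes.

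Other large rises came from genes of varied roles. Rgma, a ligand of neogenin and a BMP co-receptor, rose from 9.98 to 10.39 up to 10.79, 11.68 and 11.81 (1.18, SE 0.19, adjusted p = 0.0036). Cdk5r1, the p35 activator of CDK5, stood between 10.30 and 10.60 and then at 11.22, 11.89 and 11.38, highest at 90 min (1.06, SE 0.14, adjusted p = 0.001). Pim3, a serine kinase, likewise peaked at 90 min, at 10.66 after 9.05 to 9.58 in the earlier arrays (1.05, adjusted p = 0.0011). The actin-binding gene Enc1 declined from 9.69 at 0 min to 9.16 at 45 min and then read 10.09, 10.51 and 10.71 (0.98, adjusted p = 0.0027). G0s2, an inhibitor of adipose triglyceride lipase, and Chst3, a chondroitin sulfotransferase, changed by 1.11 and 0.99 (adjusted p = 0.0084 and 0.0064). Without the 90 min array these 2 had adjusted p values of 0.071 and 0.059, and without that of 120 min G0s2 had one of 0.054.

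Transcription factors of neural patterning and lineage moved both ways. Pou3f1 (Oct6), a POU factor of neural and glial progenitors, read 11.45, 11.11, 11.11 and 11.29 and then 10.47, 9.49 and 8.39. Each later array lay below the one before, with about even steps, and the change was -1.79 (SE 0.31, adjusted p = 0.0064) or 3.46-fold. Gbx2, a homeobox gene known from the mid-hindbrain boundary, went from 9.79 to 10.29 down to 9.33, 8.57 and 8.06 (-1.33, SE 0.21, adjusted p = 0.0037). Olig2, a bHLH factor of oligodendrocyte progenitors, stood at 9.03 to 9.18 and then at 8.43, 7.85 and 6.66 (-1.43, SE 0.27, adjusted p = 0.01); without the 120 min array the change was -0.94 (adjusted p = 0.0053). Olig1 changed by -0.17 (adjusted p = 0.38), and Olig2 was the only call among 6 tested oligodendrocyte lineage genes, beside 2.3% of all tested features. Hlx, a homeobox gene, fell from 8.64 to 9.01 down to 8.07, 7.25 and 6.94 (-1.46, SE 0.19, adjusted p = 0.001). Irf2bpl read 11.87, 11.82, 11.29 and 11.84 and then 11.21, 10.38 and 9.40 (-1.37, adjusted p = 0.019), and lost its call without the array of 0, 15, 45, 90 or 120 min (adjusted p = 0.054 to 0.082). With a variance trend and robust fitting, Pou3f1, Olig2 and Irf2bpl had adjusted p values of 0.15, 0.13 and 0.19 and were not called.

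Of 10 tested POU and patterning factors, 2 fell (Pou3f1 and Gbx2) and 2 rose, beside 1.04% and 1.27% of all tested features. Sox21, a SOXB factor that counters SOXB1 factors in neural progenitors, rose from 12.05 to 12.47 up to 12.83, 13.08 and 13.35 (0.88, SE 0.13, adjusted p = 0.0024). Zic1 rose from 10.44 to 10.80 up to 10.89, 11.33 and 11.83 (0.77, adjusted p = 0.023). Sox2, a factor of neural stem cells, changed by -0.09 (adjusted p = 0.75). Tox3, an HMG-box gene, stood at 8.95 to 9.16 and then at 9.31, 9.83 and 10.48 (0.82, adjusted p = 0.033). Sox4, a SOX factor of neuronal commitment, rose from 9.87 to 10.28 up to 10.38, 10.96 and 11.01 (0.70, adjusted p = 0.02), the only call at onset among 9 tested neuronal lineage genes. Of that list, Dcx lay at 6.08 to 6.51 over the 7 arrays, Stmn1 at 10.08 to 10.80, Sox11 at 12.62 to 12.96 and Map2 at 12.60 to 13.06. Prox1 lay at 8.08 to 8.93, Calb2 at 8.53 to 9.16 and Dlx1 at 7.44 to 8.02. Among 7 tested neural stem cell markers and 8 astrocyte markers 0 passed at onset, beside 2.3% of all tested features. Among the astrocyte markers Gfap lay at 6.18 to 6.47, Cd44 at 9.85 to 10.35, Aldoc at 12.91 to 13.10 and Slc1a3 at 13.82 to 14.17. Zic1 lost its call without the array of 0, 15, 30, 90 or 120 min (adjusted p = 0.062 to 0.14), Tox3 without any array but that of 60 min (0.065 to 0.15) and, at 0.067, with a variance trend and robust fitting, and Sox4 without that of 0, 30, 90 or 120 min (0.062 to 0.15).

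In the Notch pathway, which keeps precursors undifferentiated by signals between neighbouring cells, 4 of 12 tested genes rose and 1 fell. Of all tested features, 1.27% were called higher and 1.04% lower. The list's median was 0.15. Dll1, a Notch ligand, stood between 8.05 and 8.26 and then at 8.70, 9.27 and 9.50 (0.97, SE 0.15, adjusted p = 0.0027). Hes5, a repressor that Notch activates, read 6.84, 6.92, 6.50 and 6.34 and then 7.28, 7.27 and 7.90 (0.84, SE 0.16, adjusted p = 0.013), while Hes1, the other main repressor of this kind, changed by -0.26 (adjusted p = 0.34). Of the Fringe enzymes that modify Notch receptors, Mfng rose by 0.66 (adjusted p = 0.019) and Lfng fell by 0.55 (adjusted p = 0.021), and Rfng changed by -0.06. The fourth rise, Hes6, chosen after its values were seen, was 0.51 (adjusted p = 0.027). Id1 and Id2, inhibitors of bHLH factors that BMP signalling raises, reached 8.72 and 10.20 at 90 min and stood lower, at 8.36 and 9.58, at 120 min (0.79 and 0.72, adjusted p = 0.013 and 0.036), while Id3 changed by -0.21. The Notch count was 2 rises without the 90 min array, 1 without that of 120 min and 2 with all 17 arrays in the fit, where Mfng had an adjusted p of 0.13. Hes5 had an adjusted p of 0.087 without 120 min, Id1 of 0.094 and 0.075 without 90 and without 120 min, and Id2 of 0.056 to 0.22 without the array of 0, 15, 30, 90 or 120 min and of 0.15 with the 150 min array added. Mfng lost its call without that of 0, 45, 90 or 120 min (adjusted p = 0.056 to 0.14) and Lfng without that of 0, 15, 45, 90 or 120 min (0.055 to 0.16).

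The cell cycle lists held 0 calls at onset, by limma at an adjusted p under 0.05: 0 of 18 DNA replication genes (median 0.10, from -0.22 to 0.43), 0 of 16 mitosis genes (median -0.04, from -0.33 to 0.29) and 0 of 10 G1 cyclins and CDK inhibitors. Ccnd1, the cyclin that growth factors induce in G1, changed by -0.24 (adjusted p = 0.41), and Mki67 by 0.02. At 120 min, 2 CDK inhibitors passed, Cdkn1c (1.03, adjusted p = 0.002) and Cdkn1a (0.64, adjusted p = 0.04), both named after their values were seen. Sterol synthesis (0 of 14), circadian clock (0 of 10), polyamine synthesis (0 of 5), ribosomal protein (0 of 5) and endothelial genes (0 of 3) also held 0 calls. Since 2.3% of all 9940 tested features were called, lists as short as these would hold few calls or none in any case. In a simulation on the 9940 features the onset comparison recovered 4.48% of changes of 0.3, 55.2% of those of 0.6 and 93.9% of those of 1 on the log2 scale, so changes under 0.6 were often not detectable. These shares were read by size of change only, and recovery of changes that grew over the later arrays was not tested. In these bulk samples, fewer cells of a type and less RNA per cell cannot be told apart.

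More features passed at each later time. Against the mean of the 4 earlier arrays, 8 features passed at 60 min (0.0805%), 114 at 90 min (1.15%) and 309 at 120 min (3.11%). These comparisons share the earlier arrays, and each lone later array was assumed to vary like them, so a difference in quality between the arrays of 60, 90 and 120 min cannot be told apart from one of time. The 8 at 60 min were all named: Egr1 (-3.00), Dusp6 (-2.88), Irs2 (-1.30) and Plk2 (-1.23) were the 4 lower ones (0.0402%), and Gadd45g (1.84), Arrdc3 (1.31), Gadd45b (1.28) and Ddit4 (1.2) the 4 higher ones (0.0402%). At 90 min 67 were higher (0.674%) and 47 lower (0.473%), and at 120 min 158 were higher (1.59%) and 151 lower (1.52%). Without the 15 min array 2 features passed at 60 min, and the range over all arrays left out was 2 to 11. In simulation the 60 min comparison recovered 43.9% of changes of 1 and 0% of those of 0.6, so changes under 1 were mostly not detectable at 60 min. Of the 126 rises called at onset, 4 passed at 60 min, 55 at 90 min and 84 at 120 min, with median changes of 0.40, 0.68 and 0.76. Of the 103 falls, 4, 43 and 80 passed, with medians of -0.39, -0.66 and -0.81. The called features had been chosen on these same 3 arrays, so the counts describe their course only. In order of time, 72 of the 126 rises and 80 of the 103 falls moved further from 60 to 90 min and again from 90 to 120 min. The share of all tested features with this order was not computed. The 120 min array was the farthest of the 3 for 167 of the 229 called features, beside 4133 of all 9940 tested.

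**Figure D3:**
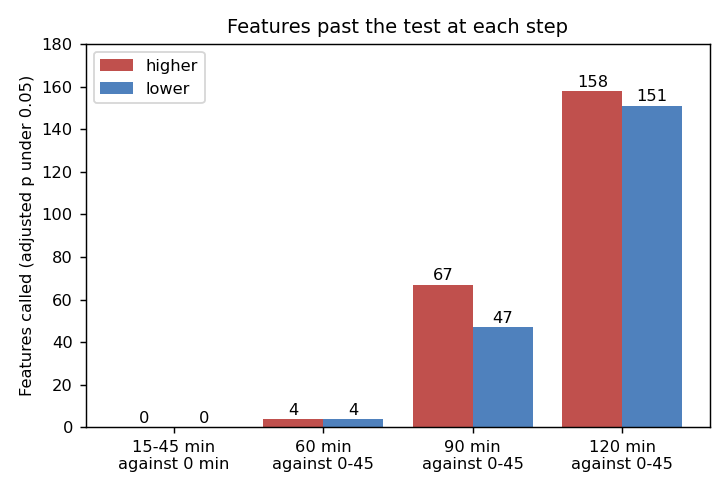
Number of features past the test, higher (red) or lower (blue), in 4 comparisons among the 7 arrays. The counts go from 0 between 15 to 45 min and 0 min, through 8 at 60 min and 114 at 90 min, to 309 at 120 min.

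Between 60 and 120 min, 40 features passed (0.402%), 15 higher and 25 lower; without the array of 15 or of 45 min 24 passed. This sets 1 array against 1 array, with the spread taken from the 4 earlier arrays alone, so the values below describe these 2 arrays and the p-values hold only if both vary like the earlier ones. Among the named genes, Dusp6 and Pou3f1 both fell by 2.08 from the first of these arrays to the last (adjusted p = 0.035 and 0.00057). The changes were -1.81 for Irf2bpl (adjusted p = 0.006), -1.77 for Olig2 (adjusted p = 0.0006), -1.67 for Irs2 and -1.44 for Egr4 (adjusted p = 0.0073 for both). Chac1 rose by 2.35 (adjusted p = 0.0073), Bcl2l11 by 1.50 (adjusted p = 0.0031), Tox3 by 1.16 (adjusted p = 0.018) and Nol4l by 1.16 (adjusted p = 0.03). Nol4l stood at 7.18 to 7.53 through 45 min and at 7.38 at 60 min, and then read 8.06 and 8.54, so its onset change of 0.60 did not pass (adjusted p = 0.12). For Egr1 the difference between these 2 arrays was -1.06, which did not pass. None of the 229 features called at onset moved back between 60 and 120 min by a change that passed.

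The earlier arrays were not all alike for the called genes. The test of 15 to 45 min against 0 min called 0 features by limma, with 399 at an unadjusted p under 0.05 (4.01%), and 1 feature passed when the array of 30 or of 45 min was left out. At 45 min, 90 of the 229 features called at onset (39.3%) already lay beyond the range of 0 to 30 min in the direction of their later change, beside 25.3% of all tested features, for which the direction was likewise taken from the later arrays. From 0 to 45 min, 21 of the 229 (9.17%) moved at every step in the direction of their later change, beside 4.28% of all tested features. Dusp6, Egr1, Ier3, Jun, Gbx2, Adm, Chst3 and Gadd45g were among them, and Gadd45b and Arrdc3 stepped up at 45 min. For such genes the mean of 0 to 45 min already holds part of the change: Dusp6 had gone from 13.65 to 12.32 by 45 min, beside their mean of 12.99.

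Values at later times describe which onset changes lasted. They did not enter the main onset fit, but entered the filter and the choice of probe through means over the whole series. They also entered the alternatives with all arrays in the fit or with the 150 min array added. The later course is thus not independent of which features were tested. As log2 differences from the mean of 0 to 45 min, Gadd45g measured 2.67 (120 min) and 2.27 (720 min), and Ddit4 2.40 and 2.30. Hes5 went on from 1.26 to 2.78, and Fbxo32 from 1.17 to 2.67. Chac1 was highest at 150 min, with 3.28, and ended at -0.75, and Klf4 declined from 1.62 at 120 min to 0.22 by the last array. Id1 reached 1.18 at 90 min and had returned to -0.08 by 180 min. Arrdc3 had a low of 0.63, at 150 min, between highs of 1.31 at 60 min and 1.54 at 720 min. Among the falls, Olig2 went from -2.41 (120 min) back to -0.04 (720 min) and Plk2 from -1.92 to -0.08, while Gbx2 was at -1.93 and -2.08 and Irs2 at -2.97 and -2.0. Dusp6 and Egr1 had their lowest values of the series at 120 min (-4.96 and -4.06) and ended at -1.88 and -1.36. Phlda1 went from -0.99 to 0.94. Each of these values is from 1 array.

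**Figure D4:**
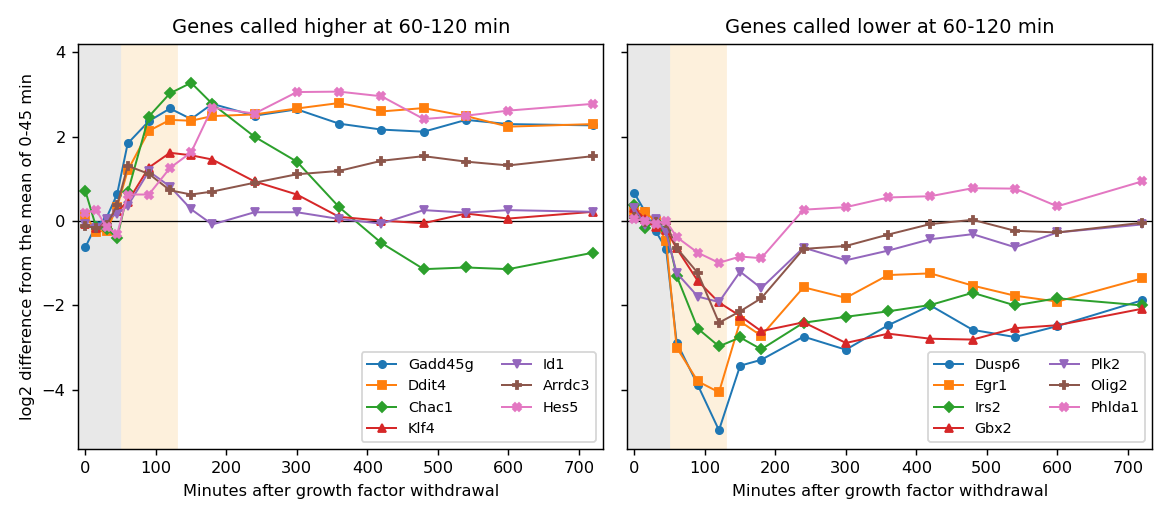
Log2 difference from the mean of the arrays of 0 to 45 min over all 17 times, for 7 genes called higher (left) and 7 called lower (right) at 60 to 120 min, with the 2 groups of arrays shaded grey and orange and 1 array per time. Chac1 returns to below 0 by 720 min while Gadd45g and Ddit4 stay at 2.27 and 2.30, and Olig2 returns to -0.04 while Gbx2 stays at -2.08.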

How the data were processed

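Total RNA of the cultures was amplified and labelled with biotin for Illumina bead arrays, per the labels' protocols. The deposited values are log2 signals, judged from their range of 5.14 to 15.47, since no unit is stated. The authors' background correction and normalization are not stated in the sources used, nor are slides or scan dates, and no detection p-values were used. Values were used without further scaling.

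The table held 19949 probes, 18351 of them with 1 gene symbol, 0 with several and 1598 unnamed. Gene names are those of the platform annotation, brought up to date with the mouse RefSeq table of GRCm38.p6 by gene identifier (16482 probes) or accession (956). For each of the 18256 named genes, the probe with the highest mean over the 17 arrays was used. Of 19854 features, the 9940 with a mean of at least 6.41, the median of all probes, were tested.

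limma 3.58.1 in R 4.3.3 (lmFit and eBayes) was fitted over the 7 arrays as 2 groups, with 5 residual degrees of freedom, and again with a coefficient for each of 60, 90 and 120 min, with 3. P-values were adjusted by Benjamini-Hochberg over all tested features, with a threshold of 0.05, and are two-sided. The script was tested on simulated data.

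Named genes were Atf3 and Atf4, the 12 largest rises and falls among called genes whose groups did not overlap, up to 4 called members per list with the largest change, and the 5 largest each way among features called at 60 min and between 60 and 120 min, passing over placeholder symbols. The groups, the 33 gene lists and the tests were chosen with earlier results of these data known. Promoters came from RefSeq (27025 genes), with the first window listed per gene. 165 of the 213 called named genes had one. Alternatives covered the filter, scaling, probe selection, the variance trend, weighting of arrays, the arrays in the fit and leaving out each array.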

Additional observations from a re-analysis of the deposited data

Results flagged for a closer look

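Among the 57 named genes, 4 had a value far from the other 3 within the earlier group of 4 arrays; chance flags about 1 in 20 groups. Gadd45b read 6.94 at 45 min, beside 6.30 to 6.36 at 0 to 30 min. Arrdc3 read 10.41 at 45 min, beside 9.87 to 9.93. Id2 read 9.57 at 45 min, beside 8.91 to 8.97. In these 3 genes the value lay toward the later arrays. Irf2bpl read 11.29 at 30 min, beside 11.82 to 11.87. Groups of 3 arrays were not checked in this way.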

How the results depend on the processing

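None of the 53 genes named by rule and called at onset changed direction under any alternative tried. They had been chosen by their changes on these same arrays, most of which every alternative reused, so a reversal was unlikely from the start. The 229 calls at onset (126 higher, 103 lower) became 434 (246 and 188) with array weights, which kept all 229, and 368, 183 of them lower, with the 150 min array added, which kept 213. Leaving out each array in turn gave 51 to 506 calls, 23 to 277 higher and 25 to 229 lower; without 90 min 51 of the 229 were kept and without 120 min 53. Calls at 60 min ranged from 2 to 11 and were 5 without the filter. Those between 60 and 120 min ranged from 24 to 48, and those between 15 to 45 min and 0 min from 0 to 1. The counts at 90 and 120 min stayed within 1.5 times under every alternative applied to them. Array weights, the fit of all 17 arrays and the added 150 min array were not applied to these counts. Leaving out another of the later arrays could not change them, since each later time had its own coefficient. With no filter 241 of 19854 features were called at onset, with the filter at the 60th percentile 198, with all 17 arrays in the fit 193 and with a variance trend and robust fitting 212. Centring arrays on their medians or repeating quantile normalization gave 229 each. Of the 53 named genes called at onset, 27 kept the call without 90 min, 30 without 120 min and 42 with a variance trend and robust fitting; the 11 lost there are Chac1, Ddit3, Fgf21, Bcl2l11, Dusp4, Hbegf, Klf6, Tox3, Pou3f1, Olig2 and Irf2bpl. No paired analysis was possible because the labels give 1 array per time with no replicate numbers. Signals near 6.41 may lie in background, so folds of dim genes are uncertain in size. Precision is limited by the 7 arrays.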
